A study of Mus musculus with 22 samples.

Results

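Small nucleolar RNAs (snoRNAs) and small Cajal body RNAs (scaRNAs) were examined in splenic immature B cells of mice, sorted as B220+CD93+ cells. The members were all genes whose symbols start with Snora, Snord or Scarna and whose mean normalized count over the libraries of a table was at least 10. The series has 3 tables, scaled separately, so groups were compared only within a table. The rule kept 42 of 79 listed genes in experiment 1 (16 Snora, 19 Snord and 7 Scarna), 61 of 81 in experiment 2 (21, 33 and 7) and 57 of 82 in culture (20, 29 and 8). In all, 62 genes were members of at least 1 table and 42 were members of all 3. They stood among 11701, 13364 and 12386 genes that passed the same minimum in experiment 1, experiment 2 and culture. At the minimum, Snord8 (mean 11.1) was just inside and Snord19 (8.92) just outside in experiment 1, Snord58b (10.9) inside and Snord98 (9.58) outside in experiment 2, and Scarna8 (10.3) inside and Snord58b (9.86) outside in culture.

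The series measured immature B cells with and without gamma delta T cells, in 22 libraries of total RNA. In experiment 1, 3 libraries came from Tcrd-GDL mice given diphtheria toxin (DTx), here called depleted, and 3 from untreated Tcrd-GDL mice. In experiment 2 there were 2 depleted libraries, 3 of the toxin control, which are Tcrd-H2BeGFP mice given DTx, and 5 from untreated Tcrd-GDL mice. In culture, B cells from Tcrd-H2BeGFP mice that had no toxin grew with gamma delta T cells (3 libraries) or alone (3 libraries). Mice given the toxin received 2 injections of 15 ng per g, with 48 h between them, and were analysed on day 8. The toxin is used to remove gamma delta T cells of Tcrd-GDL mice, and the labels do not state whether the Tcrd-H2BeGFP strain carries a toxin receptor. The toxin control therefore differs from the depleted group in strain, and from the untreated group in both strain and toxin. The sources used here give neither ages nor whether the libraries of a group came from separate animals or cultures. Each p therefore measures only how these libraries vary, which may be technical.

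SnoRNAs guide chemical modification of ribosomal RNA in the nucleolus, and most are cut out of the introns of host genes. Snora genes make H/ACA box RNAs, which guide pseudouridylation with dyskerin (Dkc1), and Snord genes make C/D box RNAs, which guide 2′-O-methylation with fibrillarin (Fbl). Scarna genes make RNAs of either or both box types that reside in Cajal bodies and guide modification of the small nuclear RNAs of the spliceosome. A few members, among them Snord118 (U8) and Snora73b (U17), are known instead for roles in cutting the ribosomal RNA precursor, from work in frog, human cells and yeast.

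The 8 sequences below belong to members called, at an adjusted p under 0.05, in at least 2 of the 5 comparisons. Scarna2, the longest member, was also called in 2 and is not shown. They were read from the transcripts of GENCODE M21 (GRCm38, the assembly also named mm10). Capitals mark ACA within the last 9 bases of Snora RNAs, the first TGATGA and the last CTGA of Snord RNAs (the letters of boxes C and D), and, in Scarna RNAs, the first TGATGA with, where present, a CTGA that lies within the last 20 bases or an ACA within the last 9. Scarna13 also holds a CTGA far from its end, which is left in lower case.
Snora21: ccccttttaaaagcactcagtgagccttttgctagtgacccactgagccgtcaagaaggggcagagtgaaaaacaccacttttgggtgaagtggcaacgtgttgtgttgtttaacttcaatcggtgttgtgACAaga
Snora23: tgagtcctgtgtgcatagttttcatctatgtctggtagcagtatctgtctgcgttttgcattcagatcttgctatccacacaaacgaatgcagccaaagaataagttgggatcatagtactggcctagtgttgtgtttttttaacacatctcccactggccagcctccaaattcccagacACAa
Snora73b: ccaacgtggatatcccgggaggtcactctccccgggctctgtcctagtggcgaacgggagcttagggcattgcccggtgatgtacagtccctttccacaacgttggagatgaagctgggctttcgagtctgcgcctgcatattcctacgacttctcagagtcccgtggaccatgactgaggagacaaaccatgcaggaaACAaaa
Snord15a: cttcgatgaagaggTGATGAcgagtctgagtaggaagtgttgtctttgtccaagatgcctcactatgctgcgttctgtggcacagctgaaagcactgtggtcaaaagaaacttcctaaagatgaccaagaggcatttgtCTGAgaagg
Snord17: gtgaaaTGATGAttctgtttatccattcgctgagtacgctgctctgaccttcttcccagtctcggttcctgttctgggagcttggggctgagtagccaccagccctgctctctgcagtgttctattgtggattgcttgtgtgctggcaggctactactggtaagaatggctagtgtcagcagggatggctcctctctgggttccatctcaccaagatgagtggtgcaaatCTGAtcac
Snord118: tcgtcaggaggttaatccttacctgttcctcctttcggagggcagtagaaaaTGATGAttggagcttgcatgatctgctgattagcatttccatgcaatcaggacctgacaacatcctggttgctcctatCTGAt
Scarna6: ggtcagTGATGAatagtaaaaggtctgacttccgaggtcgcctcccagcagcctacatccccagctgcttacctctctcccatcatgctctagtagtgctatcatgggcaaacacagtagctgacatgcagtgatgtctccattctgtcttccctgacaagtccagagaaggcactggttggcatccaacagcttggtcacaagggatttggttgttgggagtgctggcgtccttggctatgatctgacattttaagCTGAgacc
Scarna13: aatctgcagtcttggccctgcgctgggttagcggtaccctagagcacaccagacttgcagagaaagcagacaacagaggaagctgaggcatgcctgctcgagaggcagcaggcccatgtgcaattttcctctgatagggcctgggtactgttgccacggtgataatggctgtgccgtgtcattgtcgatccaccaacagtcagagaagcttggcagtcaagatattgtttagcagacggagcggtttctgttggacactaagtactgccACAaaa

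Snora21 lies at chr11:97781639-97781775 on the minus strand, in an intron of the ribosomal protein gene Rpl23. Snora23 lies at chr7:110046364-110046547 on the plus strand, in an intron of the nuclear import gene Ipo7. Snora73b lies at chr4:132352322-132352526 on the minus strand, in an intron of Snhg3, a host gene that encodes no known protein. Snord15a lies at chr7:99482785-99482932 on the minus strand, in an intron of the ribosomal protein gene Rps3. Snord17 lies at chr2:144265979-144266216 on the minus strand, in an intron of the sorting nexin gene Snx5. Snord118 lies at chr11:69073427-69073561 on the plus strand and has no host gene. Scarna6 lies at chr1:87784556-87784820 on the plus strand, in an intron of the autophagy gene Atg16l1. Scarna13 lies at chr12:105031075-105031349 on the minus strand, in an intron of Snhg10, a noncoding host gene.

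The letters of the boxes followed the symbols. ACA stood within the last 9 bases of 21 of 21 Snora members, 6 of 33 Snord members and 4 of 8 Scarna members. CTGA stood within the last 20 bases of 32 of 33 Snord, 2 of 21 Snora and 4 of 8 Scarna members. TGATGA occurred anywhere in 23 of 33 Snord, 0 of 21 Snora and 5 of 8 Scarna members. Each search used the exact letters on the sense strand. Of the 62 members, 44 lay in an intron of a host gene on the same strand, 11 lay inside an exon, 2 overlapped an exon and 5 (Scarna2, Scarna17, Snord104, Snord118 and Snord13) had no host. The members with a host had 51 different hosts, and 47 of them lay in protein-coding genes, with 16 in genes of ribosomal proteins. How reads were assigned where a member overlaps its host, and whether strand was used, is not stated in the labels, so member and host reads can mix, above all for the members inside or over exons.

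The 3 most abundant genes carried most of the members' signal. Scarna2, Scarna13 and Snord17 together held 73.2% of all member values in experiment 1 and 66.9% in experiment 2. With Snord15a and Snora73b added, the 5 genes held 82.5%, 77.4% and, in culture, 71.3%. Per kb of gene length, the mean level in experiment 2 was 17869 normalized counts for Snord17, 15041 for Scarna13, 13894 for Scarna2, 7379 for Snord15a, 6354 for Snora21 and 5547 for Snora73b. Scarna2 and Scarna13 are, in human cells, guides for the small nuclear RNAs U2 and U5. Scarna genes held 61.5% of member values in experiment 1, 50.6% in experiment 2 and 43.5% in culture, Snord genes 27.4%, 31.3% and 32.7%, and Snora genes 11.1%, 18.1% and 23.8%. The 5 members longer than 200 bases had a median level of 13890 normalized counts per kb in experiment 2, against 350 for the 56 shorter members. In experiment 1 these medians were 4201 and 204, and in culture 6234 and 305. Whether RNA isolation or library preparation favoured longer RNAs was not tested.

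Some members have near copies. Snora73a and Snora73b share 96.6% of bases over an alignment of 205, and reads of such near-identical copies may be split between them, so the level of Snora73b is uncertain to that extent. Scarna3a and Scarna3b share 85.7%, and the other pairs with a shared number (Snord49a and Snord49b, Snord35a and Snord35b, Snord42a and Snord42b, Snord45b and Snord45c) shared 68.6% to 73.9%. The tables also list 327, 416 and 390 genes annotated as snoRNA or scaRNA in experiment 1, experiment 2 and culture, most of them under predicted-gene symbols that the rule does not take.

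The B cell markers Cd79a, Cd79b, Ms4a1, Pax5, Ptprc, Cd93 and Ighm were above 0 in every group, which in bulk RNA does not measure how pure the sorted cells were. Depth, as reads recovered from the values, was 9794413 to 20343954 per library in experiment 1. It was 22022330 to 36840455 in experiment 2, and culture libraries had 17505909 to 28729574. A single gene, Gm23935, took 16.1% to 28.7%, 10.9% to 15.0% and 10.5% to 16.5% of reads in the 3 tables. In bulk samples, fewer cells that make an RNA and less of it per cell cannot be told apart.

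Members together took a small share of reads, and the share differed between libraries. In experiment 1 they took 0.0792%, 0.0542% and 0.0434% of reads in the depleted libraries (mean 0.0589 ± 0.0184, SD, n = 3), against 0.0510%, 0.0496% and 0.0449% in the untreated libraries (0.0485 ± 0.00322, n = 3). Depleted replicate 1 stood above the rest and replicate 3 below all untreated libraries, and the groups overlapped (log2 ratio 0.28, exact two-sided permutation p = 0.5, smallest possible 0.1). In experiment 2 the share was 0.133% and 0.0756% in the 2 depleted libraries, 0.0406%, 0.0467% and 0.0505% in the toxin control, and 0.0607%, 0.0692%, 0.0749%, 0.0788% and 0.0577% in the untreated libraries. The 3 toxin control libraries lay below all others (log2 ratio -0.57 against untreated, exact permutation p = 0.0357, the smallest this design allows). Mitochondrial ribosomal RNA, which counts in the total, was lower there too, with 24.5%, 19.6% and 20.7% of reads in the toxin control, against at least 28.2% in each untreated library, and with 34.8% and 26.2% in depleted libraries. With ribosomal RNA and Gm23935 left out of the total, the log2 ratio was -0.84 for toxin control to untreated (exact permutation p = 0.0357), 1.45 for depleted to toxin control and 0.61 for depleted to untreated. In the share of all reads, depleted replicate 4 stood above all others, and replicate 5 lay within the untreated range. The log2 ratio of depleted to untreated was 0.61 (exact p = 0.19, smallest possible 0.0952), and that of depleted to toxin control 1.18 with no overlap (exact p = 0.2, the smallest possible). In culture the share was 0.0606%, 0.0491% and 0.0487% with gamma delta T cells, against 0.0694%, 0.0583% and 0.0740% alone (log2 ratio -0.35, exact p = 0.2). Over the 40 shares tested in this way, the lowest Benjamini-Hochberg adjusted p was 0.381, so none passed.

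In culture, the Snora and Snord shares did not overlap between groups and the Scarna shares did. Snora members took 0.0113% ± 0.00201 of reads with gamma delta T cells and 0.0172% ± 0.00167 alone (SD, n = 3 each), and Snord members 0.0151% ± 0.00376 and 0.0241% ± 0.00245, without overlap in either class (exact permutation p = 0.1 each, the smallest possible). Scarna members took 0.0264% ± 0.00121 with gamma delta T cells and 0.0260% ± 0.00434 alone (exact p = 1.0). The ratio of Snora to Scarna reads was 0.377 to 0.495 with gamma delta T cells and 0.585 to 0.758 alone, and that of Snord to Scarna reads 0.480 to 0.707 and 0.867 to 1.02 (exact p = 0.1 each, adjusted p = 0.375 over 15 ratios, which were chosen after the values were seen). In experiment 2 the log2 ratio of depleted to untreated was 0.97 for Snora, 0.86 for Snord and 0.32 for Scarna reads, and the ratios of one class to another overlapped between these groups. Snora to Snord reads stood at 0.58 to 0.646 in the toxin control, against 0.52 to 0.564 in untreated libraries, without overlap. The exact permutation p was 0.0357 (adjusted p = 0.375). For experiment 1 that ratio was 0.393 to 0.43 in depleted and 0.39 to 0.391 in untreated libraries (exact permutation p = 0.1). Class shares are sums, so the most abundant members weigh most. In culture, Snord17 and Snord15a averaged 2444 and 656 normalized counts, against 82.8 for Snord82, the next Snord member. The median log2 difference per member in culture was -0.53 for Snora, 0.01 for Snord and -0.25 for Scarna. Most Snord members thus did not share the lower Snord share. For depleted against untreated in experiment 2 these medians were 0.54, 0.49 and 0.54.

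**Figure D1:**
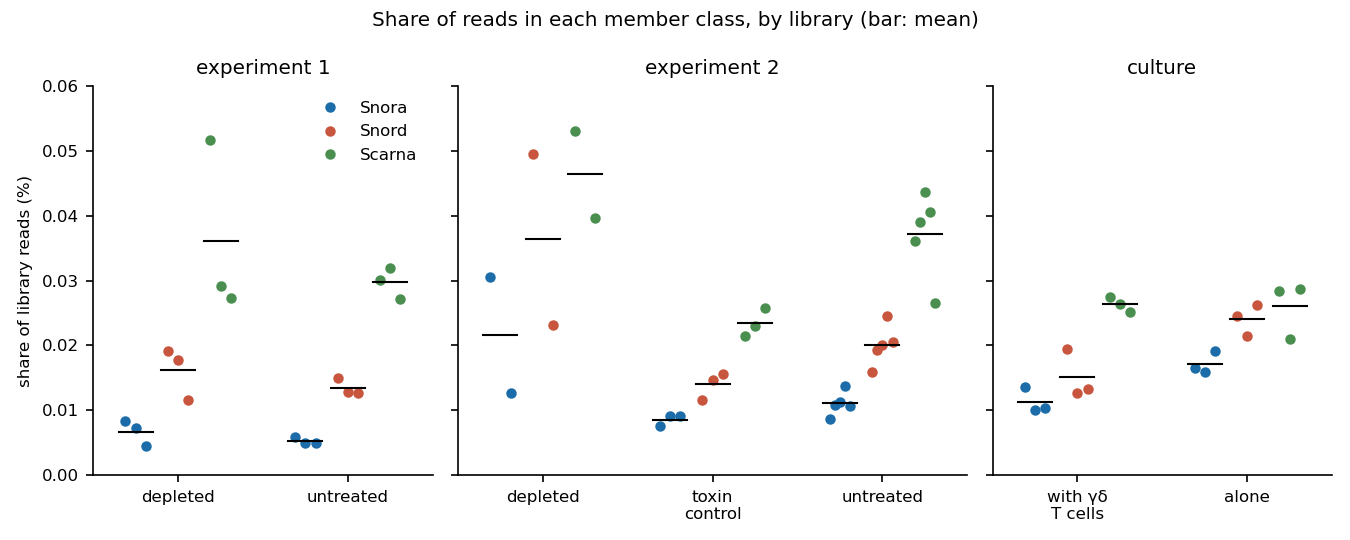
Share of library reads (percent) in the members of each class, a sum in which the most abundant members weigh most, with 1 point per library and a bar at the group mean. Depleted replicate 4 of experiment 2 is high in all 3 classes, with 0.0306%, 0.0495% and 0.0530% of reads in Snora, Snord and Scarna members, and in culture the Snora and Snord points do not overlap between groups while the Scarna points do.

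In experiment 1, no member was called. None of the 42 members, and 0.0% of the 11701 genes tested, passed an adjusted p under 0.05 by limma on log2(normalized count + 1), on which scale all differences below are given and which understates changes of low genes. By limma, 6 members and 1033 genes had an unadjusted p under 0.05. EdgeR called 0 members and 0 genes, and DESeq2 0 members and 27 genes. The count over all genes depended on 1 library: without depleted replicate 1, limma called 1097 genes and 0 members. Most members had positive differences: 38 of 42, or 90.5%, against 48.0% of all genes tested, with medians of 0.38 for Snora, 0.36 for Snord and 0.39 for Scarna, against -0.01 for all genes. The groups did not overlap for 3 members, all higher in depleted libraries, against 15.2% of all genes in either direction.

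The member with the lowest p was Scarna9, whose values were 55.1, 43.2 and 35.4 in depleted libraries, against 26.2, 19.4 and 25.4 in untreated libraries. Every depleted library lay above every untreated one (log2 difference 0.87 ± 0.27 SE, limma adjusted p = 0.502). Snora30, hosted by a predicted gene, had 24.5, 22.1 and 21.9 in depleted libraries, against 11.9, 13.3 and 11.9 in untreated libraries, again without overlap (0.83 ± 0.32 SE, limma adjusted p = 0.516). Snord82, in an intron of the nucleolin gene Ncl, had 148, 96.8 and 51.4 in depleted libraries, against 60.2, 60.6 and 37.3 in untreated libraries, which overlapped. Snord13 went the other way in its mean, with 32.1, 10.5 and 12.6 in depleted libraries, against 22.1, 31.5 and 22.0 in untreated libraries, and its groups overlapped too.

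Single libraries set much of this. Depleted replicate 1 had the highest value of the 6 libraries for 29 of 42 members. The class medians without 1 library at a time ranged from 0.12 to 0.69 for Snora, 0.20 to 0.66 for Snord and 0.01 to 0.67 for Scarna. The abundant genes were among those that 1 library decided: Scarna13 had 3120, 1186 and 1064 in depleted libraries, against 1304, 1255 and 1078 in untreated libraries, so only replicate 1 was above the untreated range. Without 1 library at a time its log2 difference ran from -0.11 to 0.67.

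In experiment 2, 1 member rose in depleted relative to untreated libraries. Scarna6, which in human cells guides modification of U5 and is one of the longer members, had 1604 and 798 normalized counts in depleted libraries, against 331, 473, 625, 616 and 399 in untreated libraries. Both depleted libraries were above all 5 untreated ones (mean 1201 ± 570, n = 2, against 489 ± 130, n = 5; log2 difference 1.25 ± 0.25 SE, limma adjusted p = 0.0434). It was 1 of 40 genes called, or 0.299% of the 13364 tested. The call ended without depleted replicate 4, without untreated replicate 4, 5, 7 or 8, and with the 2 groups fitted alone. Without depleted replicate 5, 12 members were called among 580 genes. Where 1 depleted library is left, it is assumed to vary like the libraries of the other groups.

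Of the 61 members, 49 had positive differences (80.3%, against 49.5% of all genes), with medians of 0.54 for Snora, 0.49 for Snord and 0.54 for Scarna. Groups did not overlap for 10 members higher and 1 lower in depleted libraries, against 12.3% of all genes in either direction. Next to Scarna6 in p stood Snora73b, with 3603 and 1361 in depleted libraries, against 680, 1009, 1201, 1261 and 736 in untreated libraries, which did not overlap (log2 difference 1.22 ± 0.29 SE, limma adjusted p = 0.102). Snora78, hosted by Snhg9, had 196 and 129 in depleted libraries, against 69.7, 69.8, 82.3, 89.5 and 36.2 in untreated libraries, also without overlap (1.25 ± 0.33 SE, limma adjusted p = 0.150). Not all members shared this. Scarna2, transcribed from its own gene, had 8963 and 5151 in depleted libraries, against 6580, 7079, 8436, 7555 and 4234 in untreated libraries, with a log2 difference of 0.04 ± 0.21 SE. Snord118 had 411 and 238 in depleted libraries, against 273, 426, 480, 446 and 210 in untreated libraries, with a difference of -0.16 ± 0.28 SE. The 5 members without a host gene had a median difference of 0.04, against 0.60 for the 43 in introns and 0.44 for the 13 in or over exons. Members without a host did not lie below those in introns in every comparison: the medians without a host and in introns were 1.08 and 1.13 for depleted against toxin control, -0.94 and -0.48 for toxin control against untreated, 0.25 and 0.42 in experiment 1, and 0.03 and -0.24 in culture.

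The 2 depleted libraries were far apart. Replicate 4 was higher than replicate 5 for 55 of 61 members, with a median ratio of 2.19, and it had the highest value of all 10 libraries for 44. Replicate 4 lay above all untreated libraries for 44 members and replicate 5 for 11. None of these counts was made over all genes. The class medians without 1 library at a time ran from -0.08 to 1.38 for Snora, from 0.01 to 0.85 for Snord and from 0.25 to 0.86 for Scarna, with the low end of Snora and Snord near 0 when replicate 4 was left out.

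Against the toxin control, 18 of 61 members rose in depleted libraries and none fell, at a background of 9.07% of genes called in either direction and 4.58% called higher. They were 11 Snora, 4 Snord and 3 Scarna genes. Positive differences were found for 56 members, with medians of 1.22 for Snora, 1.03 for Snord and 0.97 for Scarna, against -0.002 for all genes, and groups did not overlap for 37 members, all higher in depleted libraries, against 42.1% of genes in either direction. Snora73b had 3603 and 1361 in depleted libraries, against 423, 468 and 630 in the toxin control (log2 difference 2.15 ± 0.32 SE, limma adjusted p = 0.0016). Scarna6 had 1604 and 798 against 241, 284 and 324 (2.01 ± 0.27 SE, limma adjusted p = 0.000833). In both genes the depleted libraries lay above all toxin control libraries.

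The other called Scarna members were Scarna13, with 7656 and 5466 in depleted libraries, against 1967, 2006 and 2362 in the toxin control (1.62 ± 0.25 SE, limma adjusted p = 0.00211), and Scarna2, with 8963 and 5151 against 3121, 2920 and 3480 (1.10 ± 0.23 SE, adjusted p = 0.0128). Among Snord members, Snord17 had 12039 and 4412 in depleted libraries, against 1774, 1988 and 2411 in the toxin control (1.84 ± 0.29 SE, limma adjusted p = 0.00242), and Snord15a had 3143 and 1172 against 391, 601 and 586 (1.89 ± 0.29 SE, adjusted p = 0.00229). Snord82 and Snord83b, in introns of Ncl and the ribosomal protein gene Rpl3, were called at 1.13 and 1.75. The remaining Snora calls ran from 1.13 (Snora33) to 2.08 (Snora78), and included Snora21, with 2741 and 675 in depleted libraries, against 410, 424 and 510 in the toxin control, and Snora23, with 1160 and 378 against 242, 341 and 300. In each of these the depleted libraries lay above the toxin control, and replicate 5 lay nearer to it than replicate 4.

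Depleted replicate 4 was above all toxin control libraries for 55 of 61 members and replicate 5 for 38. Counts of this kind were not made over all genes, so their background is not known. The calls over all genes moved along with those of members when libraries were left out. Without replicate 4, 2 members were called among 39 genes, and without replicate 5, 34 among 2716, again with 1 depleted library and the spread of the other groups. Leaving out toxin control replicate 1, 2 or 3 left 12, 7 and 11 member calls among 954, 236 and 550 genes.

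Relative to untreated libraries, 9 of 61 members fell in the toxin control and none rose, 3 in each class, at a background of 15.7% of genes called in either direction and 8.34% called lower. Negative differences were found for 55 members, with medians of -0.64 for Snora, -0.51 for Snord and -0.57 for Scarna, against 0.001 for all genes, and groups did not overlap for 16 members, all lower, against 23.4% of genes in either direction. The share of members called was thus near the background of calls in either direction. Scarna2 had 3121, 2920 and 3480 in the toxin control, against 4234 to 8436 in the 5 untreated libraries (log2 difference -1.06 ± 0.19 SE, limma adjusted p = 0.0046). Snord118 had 139, 155 and 192 in the toxin control, against 210 to 480 in untreated libraries (-1.12 ± 0.25 SE, limma adjusted p = 0.00965). Scarna13 was called at -1.0, Snord17 at -0.94, Snord15a at -0.94, Snora73b at -0.92 and Scarna6 at -0.75. Snora2b and Snora69 were called at -1.09 and -1.45 from low values, with Snora69 at 11.7, 7.17 and 11.3 in the toxin control, against 11.6, 31.2, 29.9, 33.4 and 51.7 in untreated libraries, which overlapped. Without toxin control replicate 1 there were 3 member calls among 1798 genes called, without replicate 2 there was 1 among 196, and without replicate 3 there were 6 among 806. Without untreated replicate 6 or 7 there were 5, among 1008 and 1232 genes, and without untreated replicate 8 there were 14 among 2994.

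The 3 comparisons of experiment 2 share libraries and are not independent. The group means stood in the order depleted, untreated, toxin control for 44 of 61 members, a count not made over all genes. Depleted and toxin control libraries also differed in markers of cell types. The 7 B cell markers named above summed to 175300 to 204400 in depleted libraries, against 230600 to 236600 in the toxin control, without overlap, and to 197100 to 233700 in untreated libraries. Of 10 T cell markers, 9 were above 0 in every group and Trdc was not analysed here. Their sums were 697 to 904 in depleted libraries, 1344 to 2004 in the toxin control and 625 to 1688 in untreated libraries. Of 5 macrophage and monocyte markers, 4 were above 0 and Adgre1 was not analysed here, with sums of 348 to 539 in depleted libraries, 878 to 1305 in the toxin control and 418 to 1206 in untreated libraries. The 4 NK cell markers, all above 0, summed to 39.5 to 145 in depleted libraries, 197 to 312 in the toxin control and 70.8 to 341 in untreated libraries. For these 3 cell types the depleted sums lay below those of the toxin control, and untreated libraries overlapped both. The 4 neutrophil markers summed to 4.67 to 6.58 in depleted libraries, 11.7 to 129 in the toxin control and 13.4 to 123 in untreated libraries, with Elane at 0 in depleted and untreated libraries. The 5 erythroid markers, which overlapped between all groups, summed to 304 to 4124 in depleted libraries, 252 to 1475 in the toxin control and 791 to 2283 in untreated libraries. The part of these cells in the members' differences was not tested.

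**Figure D2:**
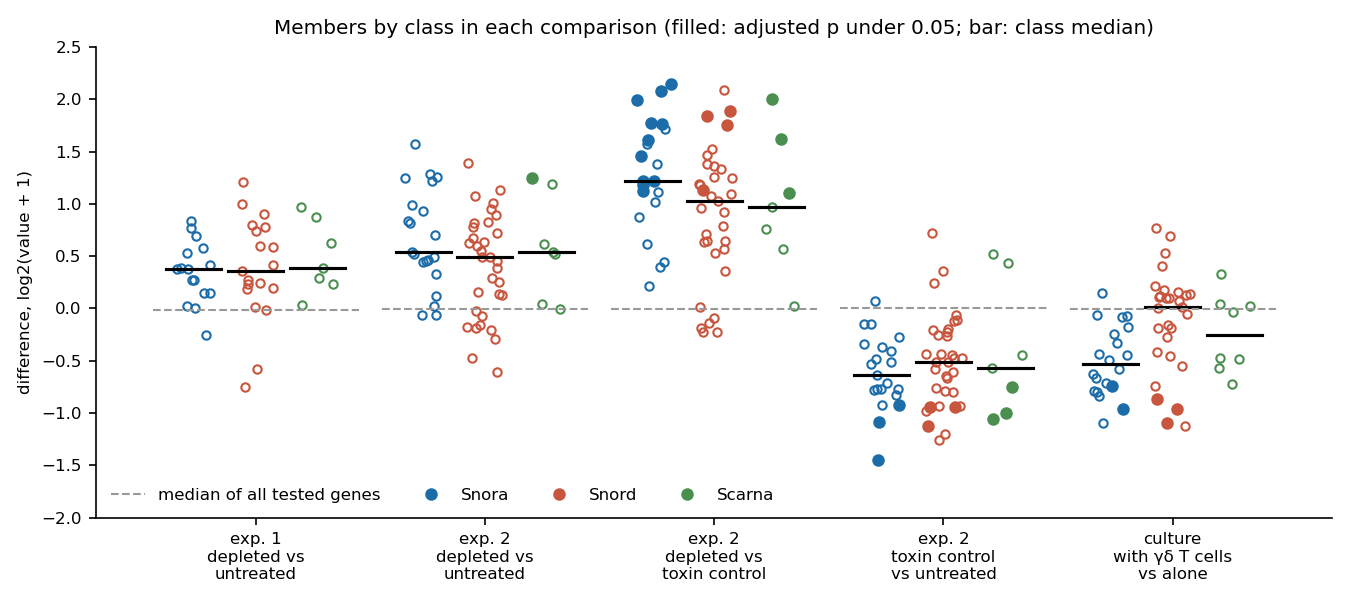
Differences in log2(normalized count + 1) of every member by class in the 5 comparisons, as first-named group minus second, with filled points at an adjusted p under 0.05, bars at class medians and a dashed line at the median of all tested genes. Class medians lie between 0.36 and 1.22 in the 3 comparisons with depleted libraries, between -0.64 and -0.51 for the toxin control against untreated, and between -0.53 and 0.01 in culture.

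In culture, 5 of 57 members fell with gamma delta T cells and none rose. The background was 2.16% of genes called in either direction and 1.06% called lower. Snord118, which is known from frog oocytes to be needed for cutting the precursor of the large-subunit ribosomal RNAs, had 50.6, 54.8 and 45.6 with gamma delta T cells, against 97.2, 99.6 and 132 alone. The groups did not overlap (log2 difference -1.10 ± 0.20 SE, limma adjusted p = 0.0123). Snora21 had 534, 400 and 354 with gamma delta T cells, against 810, 689 and 999 alone (-0.96 ± 0.17 SE, limma adjusted p = 0.0126). Snord17 had 2283, 1500 and 1246 with gamma delta T cells, against 3304, 2484 and 3847 alone (-0.96 ± 0.21 SE, limma adjusted p = 0.0331). In all 3 genes the co-culture libraries lay below all libraries of cells kept alone.

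Snord15a had 645, 423 and 350 with gamma delta T cells, against 816, 738 and 965 alone (log2 difference -0.87 ± 0.20 SE, limma adjusted p = 0.0391), and Snora23 had 310, 300 and 225, against 448, 399 and 551 (-0.74 ± 0.16 SE, adjusted p = 0.0355). Snora73b (-0.84, limma adjusted p = 0.052) and Scarna6 (-0.72, adjusted p = 0.0977) did not overlap between groups and were not called. The abundant Scarna2 and Scarna13 overlapped between groups. Scarna2 had 3146, 3396 and 2808 with gamma delta T cells, against 3389, 2301 and 3631 alone (0.03 ± 0.16 SE), and Scarna13 had 1873, 1819 and 1375, against 1831, 1322 and 2065 (-0.03 ± 0.17 SE).

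By class, 19 of 20 Snora members had negative differences (median -0.53), while Snord members were split, 16 positive and 13 negative (median 0.01), and 5 of 8 Scarna members were negative (median -0.25). All genes had a median of -0.005, with 49.2% positive. Groups did not overlap for 12 members lower and 2 higher with gamma delta T cells, against 18.4% of genes in either direction. Leaving out 1 library at a time left 0 to 7 member calls. There were 0 among 112 genes called without replicate 3 of cells kept alone, 1 among 103 without its replicate 1, 2 among 115 without its replicate 2 and 1 among 165 without co-culture replicate 2. The median of Snora stayed between -0.69 and -0.38 in these fits. Co-culture replicate 1 had the highest value of its group for 16 of 20 Snora members, a count not made over all genes. T cell markers, of which 9 of 10 were above 0, summed to 762 to 932 with gamma delta T cells, against 654 to 700 alone, and their part in these differences was not tested.

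**Figure D3:**
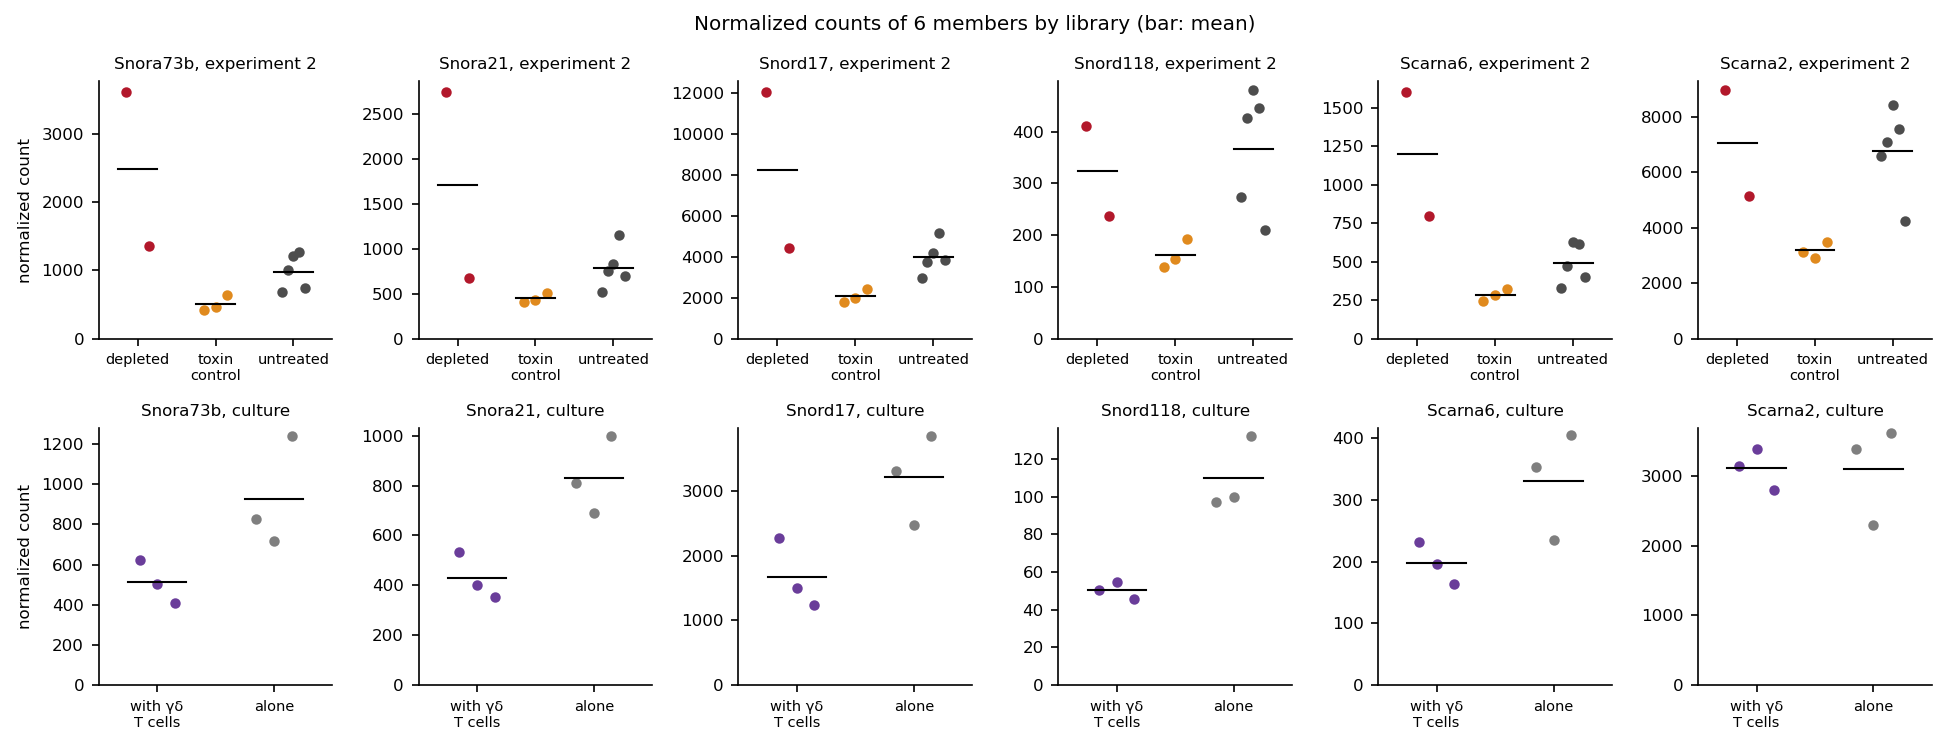
Normalized counts of 6 members by library in experiment 2 (upper row) and culture (lower row), with 1 point per library, a bar at the group mean and axes that start at 0. The depleted libraries of experiment 2 are far apart for Snora73b (3603 and 1361) and Snora21 (2741 and 675), and in culture Scarna2 overlaps between groups while Snord118 (45.6 to 54.8 with gamma delta T cells, 97.2 to 132 alone) does not.

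The experiments of depleted and untreated libraries used separate libraries, so their values can be set side by side. Of the 42 members tested in both, 32 had positive differences in both and 0 had negative differences in both. Most members were positive in each experiment (38 of 42 and 49 of 61), so mostly joint positive signs would arise without any link between them. Members also moved together within libraries: 1 depleted library of each experiment had the highest value for 29 of 42 and 44 of 61. The same count over all genes was not made. Scarna6 differed by 0.24 ± 0.25 SE in experiment 1 and 1.25 ± 0.25 SE in experiment 2, and Snora30 by 0.83 ± 0.32 and 1.28 ± 0.38. Whether the difference itself differed between experiments was not tested.

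The members' share of reads moved with that of other small RNA genes. These are genes of the annotation's small RNA types without members and without Gm23935. Rpph1 (the RNA of RNase P) and Rn7sk took most of this share in every library, and Rmrp took less. In untreated replicate 4 of experiment 2, Rpph1 and Rn7sk took 1.18% and 1.16% of reads, of 2.51% in all. Spliceosomal and other snRNA genes, a small part, took 0.0491% and 0.0305% in depleted libraries of experiment 2. Their range was 0.0204% to 0.0259% in the toxin control, inside the 0.0195% to 0.0295% of untreated libraries. In experiment 2 the other small RNA genes together took 4.56% and 3.90% of reads in depleted libraries. In the toxin control they took 1.27%, 1.77% and 1.78%, and in untreated libraries 2.51%, 2.80%, 2.80%, 2.73% and 1.74%. Both depleted libraries lay above all untreated libraries, and the toxin control libraries lay below all untreated libraries but replicate 8. Across the 10 libraries, the log2 shares of members and other small RNA genes had Pearson r = 0.923 (permutation p = 0.00018, adjusted p = 0.00216 over 24 relations) and Spearman rho = 0.879 (permutation p = 0.00191, adjusted p = 0.0246). Without the 2 libraries farthest from the median on the x axis, toxin control replicate 1 and depleted replicate 4, r was 0.859. The relation spans the 3 groups, which differ in both shares, and no group holds enough libraries for a value of its own. With Gm23935, a gene that took far more reads, r was 0.127 (permutation p = 0.728).

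By class, r in experiment 2 was 0.801 for Snora, 0.837 for Snord and 0.941 for Scarna, or 0.648, 0.633 and 0.882 without these 2 libraries. In experiment 1, r was 0.707 over 6 libraries (permutation p = 0.174, adjusted p = 0.316) and rho 0.943 (p = 0.0167, adjusted p = 0.0667), with r = 0.65 without the 2 farthest. In culture, r was 0.904 over 6 libraries (permutation p = 0.0153, adjusted p = 0.0733) and rho 0.886 (p = 0.0333, adjusted p = 0.08), with r = 0.692 without the 2 farthest. Neither passed adjustment. For Snora members alone in culture, r was 0.768 and 0.0995 without these 2 libraries, on which it rests.

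Set against the small RNA genes without Gm23935 instead of all reads, the order of the groups of experiment 2 was lost. Members were 2.37% ± 0.66 of the reads of small RNA genes without Gm23935 in depleted libraries (n = 2), 2.81% ± 0.272 in the toxin control (n = 3) and 2.68% ± 0.347 in untreated libraries (n = 5). The log2 ratios were -0.18 for depleted to untreated, -0.25 for depleted to toxin control and 0.07 for toxin control to untreated (exact permutation p = 0.476, 0.6 and 0.571), of the opposite sign to the ratios of the share of all reads. In the same order, the share of all small RNA genes, mostly Gm23935, had log2 ratios of 0.195, 0.338 and -0.143. The members' share of all reads had ratios larger in size (0.61, 1.18 and -0.57). Against all small RNA genes the order of the group means was therefore kept, which was not tested. In experiment 1 the members were 3.23%, 2.66% and 3.54% of these reads in depleted libraries, against 2.59%, 2.45% and 2.28% in untreated libraries, which did not overlap (log2 ratio 0.37, exact p = 0.1, the smallest possible). In culture they were 3.67% ± 0.581 with gamma delta T cells and 3.69% ± 0.488 alone (exact p = 1.0, n = 3 each).

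With the log2 share of other small RNA genes as a term in the fit, which was chosen after the data were seen, 0 members were called in each comparison of experiment 2 and 2 in culture. That term also left 0, 2 and 4 of all genes called for depleted against untreated, depleted against toxin control and toxin control against untreated, so it took nearly all calls, not those of members alone. The median difference of all tested genes of the small RNA types, members included, was 0.41, 0.75 and -0.43 in these comparisons. It was 0.28 in experiment 1 and -0.20 in culture, each of the sign of most members. Members were 42 of these 157 genes in experiment 1, 61 of 292 in experiment 2 and 57 of 236 in culture. This likeness in sign is therefore partly built in. Whether the small RNA content of the cells or the making of the libraries set these shares was not tested.

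**Figure D4:**
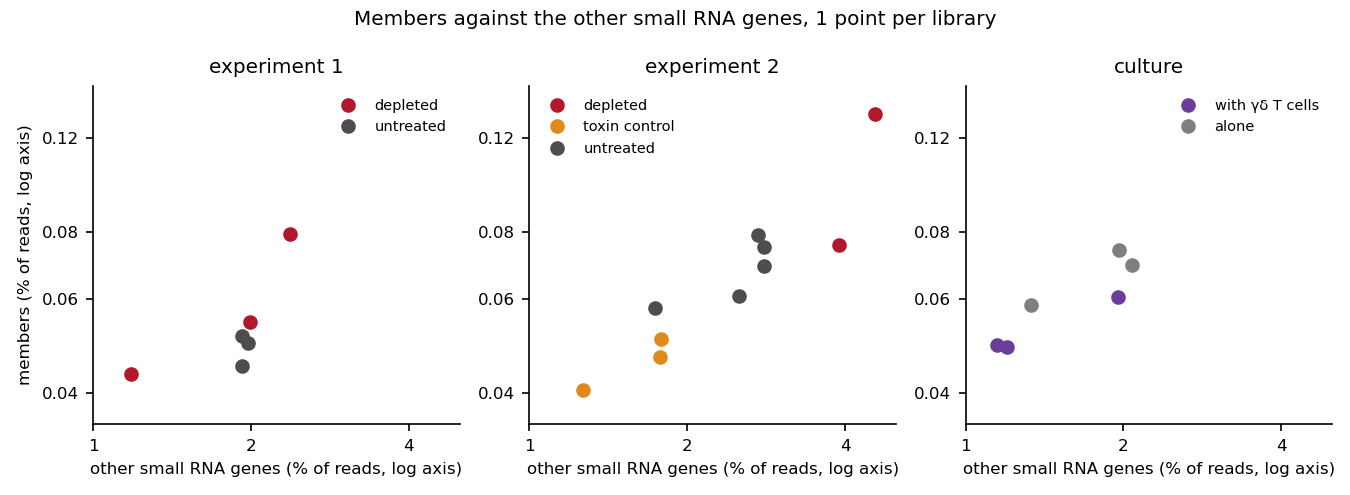
Share of reads in members against the share in other small RNA genes (both percent of reads, log axes), with 1 point per library. In experiment 2 the points run from toxin control (1.27% other small RNA, 0.0406% members) to depleted replicate 4 (4.56% and 0.133%).

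Members lay mostly above their host genes in the comparisons with depleted libraries and mostly below them in the other comparisons. Hosts passed the minimum for 33 members in experiment 1, 53 in experiment 2 and 49 in culture. The median of member minus host was 0.39 in experiment 1, 0.48 for depleted against untreated, 0.70 for depleted against toxin control, -0.27 for toxin control against untreated and -0.36 in culture. The member lay above its host for 25 of 33, 43 of 53, 46 of 53, 17 of 53 and 12 of 49 in the same order. Across members, Spearman's rho of member and host differences was -0.06, 0.35, 0.43, 0.24 and 0.21, given as a description, since several members share a host.

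Hosts of members were themselves called only in comparisons with the toxin control. With each host counted once, 21 of 47 were higher in depleted against toxin control, where 4.58% of all genes were called higher. Of the 53 members with a tested host, 14 were called there. In toxin control against untreated, 18 of 47 hosts were lower and 2 higher, where 8.34% of all genes were called lower. Of the same 53 members, 6 were called. Rps3, the host of Snord15a, differed by 0.83 ± 0.18 SE in depleted against toxin control (limma adjusted p = 0.0149), against 1.89 for Snord15a. Snx5, the host of Snord17, differed by 0.50 ± 0.11 SE (limma adjusted p = 0.0167), against 1.84 for Snord17. Atg16l1 differed by 0.19 ± 0.10 SE (adjusted p = 0.249, limma), against 2.01 for Scarna6. Ncl was higher in the toxin control than in untreated libraries (0.64 ± 0.11 SE, limma adjusted p = 0.00465), while its intronic Snord82 differed by -0.06. In culture no host was called: Rpl23 differed by 0.10 ± 0.15 SE against -0.96 for Snora21, Ipo7 by 0.10 ± 0.17 SE against -0.74 for Snora23, and Rps3 by 0.05 ± 0.17 SE against -0.87 for Snord15a.

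**Figure D5:**
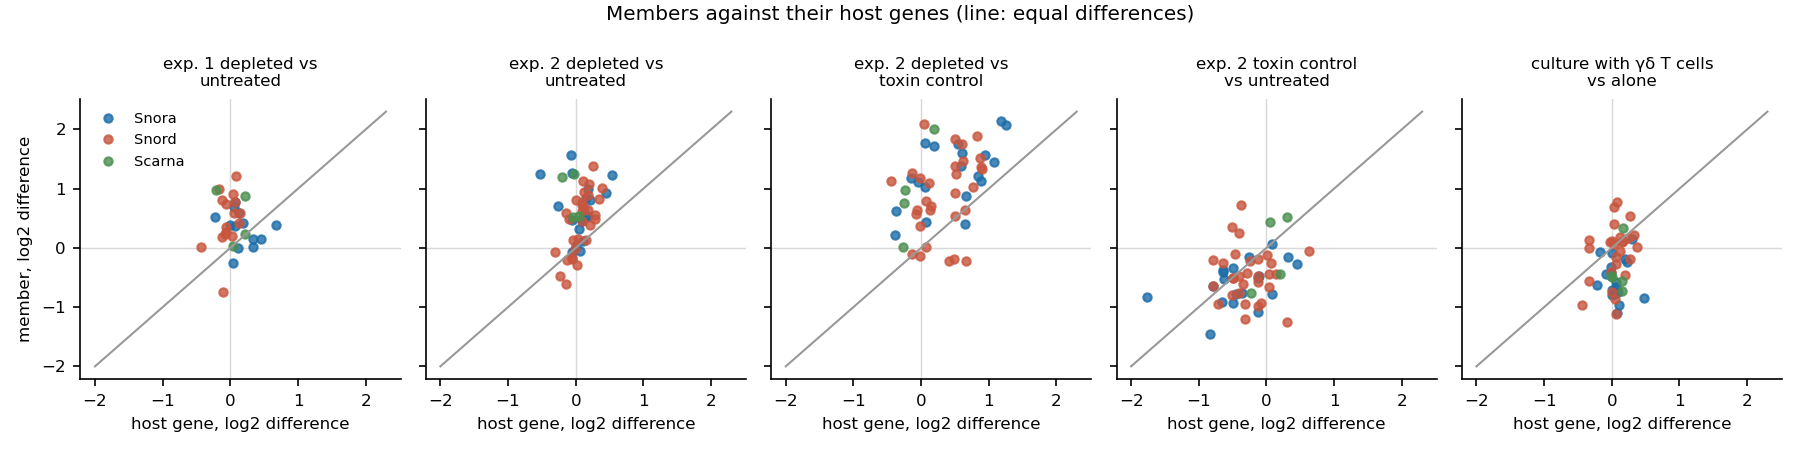
Differences in log2(normalized count + 1) of members against those of their host genes in the 5 comparisons, with 1 point per member and a line where both are equal. Points lie mostly above the line in the comparisons with depleted libraries (43 of 53 for depleted against untreated in experiment 2) and mostly below it in the other comparisons (37 of 49 in culture).

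Genes for the core proteins of snoRNA particles were called only in the toxin control against untreated libraries, where 15.7% of all genes were called. Of the box C/D core proteins (Fbl, Nop56, Nop58 and Snu13), 3 were tested and none was called in any comparison. Their medians were -0.13 in experiment 1, -0.10, 0.15 and -0.19 in experiment 2 (depleted against untreated, depleted against toxin control, toxin control against untreated) and 0.26 in culture. Fbl had 1114 ± 102 in depleted (n = 2), 986 ± 63.4 in toxin control (n = 3) and 1123 ± 86.8 in untreated libraries (n = 5). Of the 4 H/ACA core proteins, Nop10 (log2 difference -0.80 ± 0.14 SE, limma adjusted p = 0.00472) and Nhp2 (-0.43 ± 0.11 SE, adjusted p = 0.0188) fell in the toxin control relative to untreated libraries, and Dkc1, the pseudouridine synthase, rose (0.29 ± 0.09 SE, adjusted p = 0.0424). None of the 4 was called in the other comparisons.

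None of 9 tested assembly factors was called in any comparison. Of 7 Cajal body and trafficking genes, Nolc1 rose (0.39) and Gemin2 fell (-0.56) in the toxin control against untreated libraries, and none was called elsewhere. Of 7 tested genes of 3′ end processing or of RNA decay, Xrn1 rose in that comparison (0.30) and none was called elsewhere. Xrn1 is a cytoplasmic exonuclease and belongs to the decay part of this list. Of the host genes that encode little or no protein, 5 of 10 tested rose in depleted libraries against the toxin control: Gas5 (0.56), Snhg3 (1.19), Snhg6 (0.87), Snhg7 (0.82) and Snhg12 (1.08). The list median was 0.78, against -0.002 for all genes, of which 4.58% were called higher. Gas5 (-0.45) and Snhg12 (-0.63) fell in the toxin control against untreated libraries, with a list median of -0.47, where 8.34% of all genes were called lower. None of these hosts was called in experiment 1 (9 tested), for depleted against untreated in experiment 2 (10 tested) or in culture (10 tested).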

How the data were processed

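Total RNA of 22 libraries was sequenced. Per the labels' protocols, the RNeasy Plus Micro kit gave the RNA, and libraries were made with a SMART-Seq Stranded kit for total RNA. Per the submitters' processing notes, bcl2fastq and STAR 2.5.2b were used with mm10. The sources used here do not name the counter, its use of strand, the annotation or the scaling method. The authors deposited 3 tables of normalized counts, a signal scaled per library, per the labels. In each library 100% of values were whole multiples of 1 read within 0.01, so depths are sums of recovered reads and counting error is largest for low members.

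The members and lists were chosen with earlier results of these data known. Genes with a table mean of at least 10 were fitted on log2(value + 1) by limma 3.58.1 in R 4.3.3, using eBayes with its trend option and no covariate, and adjusted by Benjamini-Hochberg over all genes tested (called at an adjusted p under 0.05). The 10 libraries of experiment 2 were fitted together. Shares of reads were tested with exact two-sided permutation tests over libraries (Python 3.11.15), and relations between shares in experiment 2 with 100000 permutations. Alternatives used edgeR 4.0.16 and DESeq2 1.42.0 on recovered reads, other scalings, pseudocounts and minimums, and leaving out libraries. The fit was tested on simulated data. Named members were, per comparison and class, up to 5 called members in each direction with the largest differences or else the 3 with the smallest p, the most abundant per kb, and a fixed set (Snord118, Snord13, Snord14, Snora73, Scarna2, Scarna6 and Scarna13). Other named members were chosen after their values were seen. GENCODE M21, which held 98.9%, 98.8% and 98.8% of the tables' gene identifiers, gave coordinates, hosts, types and sequences.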

Additional observations from a re-analysis of the deposited data

Results flagged for a closer look

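Scarna3a had 31.2 normalized counts in untreated replicate 6 of experiment 2, above 26.7 in the next library and 24.97 in the lowest, a gap of 0.719 of the range of the 5 libraries, where 0.71 is the critical value of Dixon's test. It was 1 of 28 values checked in this way, and chance flags about 1 in 20. The 2 depleted libraries had 103 and 38.5.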

How the results depend on the processing

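In experiment 1 every alternative left 0 calls among members. For depleted against untreated in experiment 2 (1 call), a mean of at least 50, quantile normalization, the small RNA term, fitting only the 2 groups, and leaving out depleted replicate 4 with untreated replicate 8 each gave 0, edgeR gave 2 and DESeq2 7, and leaving out 1 library gave 0 to 12. For depleted against toxin control (18 calls), DESeq2 gave 31, only the 2 groups 9, the small RNA term 0, and leaving out 1 library 2 to 34. For toxin control against untreated (9 calls), DESeq2 gave 14, only the 2 groups 15, the small RNA term 0, and leaving out 1 library 1 to 14. In culture (5 calls), edgeR gave 3, scaling by the total without small RNAs 3, the small RNA term 2, and leaving out 1 library 0 to 7. Calls over all genes moved too: DESeq2 called 138, 1763 and 2615 genes in the 3 comparisons of experiment 2, where limma called 40, 1212 and 2093. The cause was not tested. Under the small RNA term, 5 named members turned negative for depleted against toxin control: Snora30 (-0.25), Snord82 (-0.46), Snord83b (-0.26), Scarna2 (-0.33) and Scarna13 (-0.11). Class medians turned negative for Snord (-0.31) and Scarna (-0.19) against untreated, and for Snord (-0.11) and Scarna (-0.31) against toxin control.

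Taken as a percent of small RNA genes without Gm23935, the log2 ratio of the members' share turned to -0.179, -0.248 and 0.069 in experiment 2. For toxin control against untreated it was -0.29 without the 5 most abundant members (exact permutation p = 0.107, where the design still allows 0.0357). Without 1 library at a time it was -0.65 to -0.49, where the smallest p these smaller designs allow (0.0571 or 0.0952) is above 0.05. Scaling by the total without small RNAs moved the median of all genes to -0.32 for depleted against toxin control and 0.33 for toxin control against untreated, with class medians of 0.90, 0.73 and 0.65, and of -0.31, -0.19 and -0.26, for Snora, Snord and Scarna. Other scalings kept the sign of every class median.

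Whether replicate numbers shared between groups pair the libraries was not settled. Same-numbered deviations correlated at -0.04 to 0.05 (experiment 1), -0.11 to -0.07 (experiment 2) and -0.04 to 0.23 (culture). Deviations with different numbers correlated at -0.104 to 0.099, -0.161 to 0.161 and -0.258 to 0.13 in the same order. In experiment 2 the 2 depleted libraries deviate from their own mean by equal and opposite amounts, so these correlations cannot show pairing there. The fit with a replicate block gave 0 member calls in experiment 1 (0 genes in all), 8 for depleted against untreated in experiment 2 (152 genes, against 40 without the block) and 7 in culture (448 genes, against 267). Counting error is largest for members near the minimum mean of 10, and no detection limit was estimated.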
